A study of Homo sapiens with 12 samples.

Results

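The comparison described here set polysomal RNA against input RNA in control cells. It used 6 of the 12 RNA-seq libraries of a polysome profiling experiment: 3 polysomal and 3 input libraries of H1299 cells that had received the control siRNA (siCtrl). Genes were taken when their mean over these 6 libraries was at least 1 TPM (transcripts per 1000000 transcripts of a library), which chose 10642 of the 16172 genes in the table. No difference between the fractions entered that choice. The other 5530 genes were set aside, and 504 of them were listed at 0 in all 6 libraries.

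H1299 is an established human non-small-cell lung cancer line. All cells were transfected with jetPRIME reagent and lysed 72 h later, so the control cells had also gone through transfection and carried a control siRNA. The other 6 libraries, 3 polysomal and 3 input, come from cells given a mix of 2 siRNAs against EIF3G (siEIF3G), and entered the fit only to help estimate the spread between libraries. From each lysate supernatant 10% was kept as input, and the remainder was spun through sucrose (10% to 50%) so that the polysomal part could be collected. RNA of both fractions was enriched with oligo(dT) beads, so mRNAs with short or no poly(A) tails are measured poorly. One line was used, and nothing in the labels says that libraries of a group came from separate cultures. The p-values therefore rest on the spread among these libraries, which may be technical.

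A polysome is an mRNA that carries several ribosomes at once. Such mRNAs are heavy and sediment deep into a sucrose gradient, away from free mRNA and from mRNA with a single ribosome. The share of an mRNA found on polysomes depends on how often ribosomes start on it, how fast they move along it and how long its coding sequence is, since a short coding sequence has room for few ribosomes. Ribosomal protein mRNAs are the classic case of control at this step. They begin with a run of pyrimidines, the 5' terminal oligopyrimidine (TOP) tract, which ties their loading to growth signals.

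In this table a polysomal value above the input value means that the mRNA takes a larger share of the polysomal library than of the input library. It does not give the fraction of the mRNA's molecules on polysomes, and a change in the total amount of mRNA on polysomes would leave it as it is. Differences between fractions are given as log2(TPM + 1) of polysomal minus input, which understates the difference of genes with low values. TPM keep no read counts, so the depth of the libraries is unknown and counting error has no interval here. In these bulk samples, fewer cells in a state and less RNA per cell cannot be told apart.

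Of the lung epithelial markers in the table, NKX2-1 reached at most 0.22 TPM, FOXJ1 at most 0.03 TPM and SFTPB at most 0.02 TPM in the 6 libraries. The epithelial adhesion genes EPCAM and CDH1 reached at most 0.44 and 0.02 TPM. The keratin genes KRT8 and KRT18 were above 145 and 546 TPM in every library, and VIM, the intermediate filament of mesenchymal cells, was above 264 TPM. Of the other mesenchymal markers, AXL was at 40.4 to 142 TPM, ZEB1 at 0.32 to 8.92 TPM and CDH2 at 0.15 to 6.83 TPM. Markers of other cells were mixed. PECAM1, VWF and ALB reached at most 0.07 TPM and COL1A1 at most 0.05 TPM. ACTA2 was at 2.69 to 9.23 TPM, MBP at 0.61 to 5.42 TPM and CD68 at 59.0 to 132 TPM.

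Of the siCtrl libraries, 1 input library stood apart. The median level of the tested genes was 5.78 TPM in siCtrl input 1, against 14.4 and 18.4 TPM in siCtrl input 2 and 3 and 4.11 to 6.08 TPM in the 3 polysomal libraries. Across the tested genes, which are not independent replicates, siCtrl input 1 had a mean Pearson correlation of 0.92 with the other input libraries and 0.96 with the polysomal ones. It was the lowest of the 3 input libraries in 8768 of 10642 genes (82.4%). Counts and medians that move with it are therefore given with and without this library.

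Fewer genes were higher on polysomes than lower. With limma and Benjamini-Hochberg adjustment over all tested genes (adjusted p under 0.05), 851 genes were higher in polysomal RNA, 8% of those tested, and 3125 were lower, 29.4%. The median over all tested genes was -0.97, so this value, not 0, is what a typical mRNA showed, and class values below are also given relative to it. The size of the median differed by input library: the polysomal mean minus each input library had a median of -0.10 against siCtrl input 1, -1.19 against siCtrl input 2 and -1.55 against siCtrl input 3. Without siCtrl input 1, the median was -1.37, with 952 genes higher (8.95%) and 6257 lower (58.8%). The 3 polysomal values lay above all 3 input values in 1803 genes (16.9%) and below them in 3088 genes (29.0%). In 648 of the called genes the groups overlapped.

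Size factors and quantile normalization both moved the median of all genes upward. An upward shift tends to keep calls of higher genes and remove calls of lower ones. Quantile normalization did not move all levels alike. It lowered the median from 0.34 to 0.20 among genes of 100 to 500 TPM and from 0.28 to 0.13 among those of 500 TPM or more. The shares that kept their call therefore do not show which direction is the more robust. Totals without ribosomal protein genes went the other way, with 772 genes higher and 4938 lower. All 851 genes called higher were also higher with median-of-ratios size factors, 629 (73.9%) with quantile normalization and 777 (91.3%) without siCtrl input 1. Of the 3125 genes called lower, 1708 (54.7%) were also lower with size factors, 1207 (38.6%) with quantile normalization and 3100 (99.2%) without siCtrl input 1. Size factors shifted the differences upward: POLR2G, described below, went from 2.21 as deposited to 3.38 and PRKDC from -3.77 to -2.91, while quantile normalization gave 2.01 and -3.10. These scalings moved the median of all genes from -0.97 to -0.04 and -0.09. They also turned the split of calls around, from 21.4% higher as deposited to 62.2% higher with size factors (2850 against 1735) and 57.3% with quantile normalization (1691 against 1259). Single libraries decided the counts too. Without siCtrl polysomal 1, 2 or 3 in turn there were 111, 48 and 159 genes higher and 116, 82 and 116 lower. Without siCtrl input 2 or 3 there were 88 and 91 higher and 56 and 84 lower. The knockdown libraries, which set part of the spread, mattered as well. Without siEIF3G polysomal 1 or 2 there were 406 and 548 genes higher and 691 and 1000 lower. Without siEIF3G input 2 or 3 there were 4861 and 1702 genes lower.

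**Figure D1:**
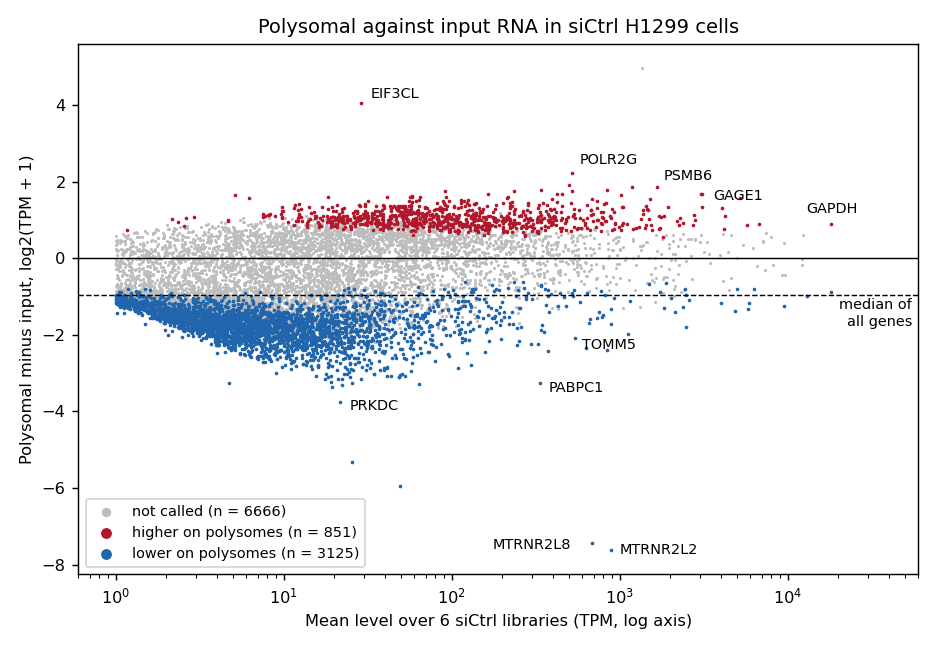
Each point is 1 of the 10642 tested genes, placed by its mean level over the 6 siCtrl libraries (TPM, log axis) and by its polysomal minus input difference (log2(TPM + 1)). Red points are the 851 genes called higher and blue points the 3125 called lower. The dashed line is the median of all genes at -0.97. Red points crowd to the right of about 20 TPM, and blue points lie mostly to its left.

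The genes most enriched on polysomes included subunits of the proteasome, of mitochondria and of RNA polymerase II. POLR2G, which encodes the RPB7 subunit of RNA polymerase II, was at 823, 890 and 855 TPM in the 3 polysomal libraries and at 200, 178 and 173 TPM in the 3 input libraries. The libraries within each fraction lay close together and the fractions did not overlap. The means were 856 ± 33.7 and 184 ± 14.3 TPM (SD, n = 3 libraries each), a 4.65-fold ratio and a log2 difference of 2.21 (SE 0.21, limma adjusted p = 0.000215). PSMB6 encodes a catalytic subunit of the proteasome, the complex that degrades ubiquitin-tagged proteins. It was at 2556, 2682 and 2574 TPM on polysomes and at 734, 743 and 687 TPM in the input, a log2 difference of 1.85 (SE 0.18, limma adjusted p = 0.000201). PSMB3, another subunit of the same inner ring, was at 1884, 1942 and 1765 against 515, 562 and 472 TPM. It was also higher by 1.85 (SE 0.20, limma adjusted p = 0.000691). In both genes siCtrl input 1 lay between the other input libraries, unlike its place for most genes.

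MRPL27, a protein of the mitochondrial ribosome, was at 467, 530 and 592 TPM on polysomes and at 126, 156 and 176 TPM in the input. Its difference was 1.79 (SE 0.20, limma adjusted p = 0.000691). ETFB, a carrier of electrons from fatty acid oxidation, was at 622, 716 and 600 against 202, 222 and 182 TPM, a difference of 1.67. The polysomal libraries stood well above the input libraries in both genes. Others among the 12 largest differences were ALYREF (1.77), an mRNA export adaptor, NOP16 (1.76), a nucleolar protein of ribosome assembly, AAMP (1.74), AAMDC (1.74) and CDK5 (1.67), a kinase best known from neurons. Each rose with non-overlapping fractions, which the rule for naming all 12 required.

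A pair of the largest differences falls on genes with near copies, where the authors' counting could split reads between copies. EIF3CL was at 78.8, 48.2 and 35.4 TPM on polysomes and at 9.16, 0 and 2.15 TPM in the input, a difference of 4.04 (SE 0.87, limma adjusted p = 0.0162). Its near copy EIF3C, a core subunit of the initiation factor eIF3, went the other way, at 86.8, 27.0 and 17.7 against 72.3, 218 and 268 TPM, with overlapping fractions. GAGE12J belongs to a cluster of nearly identical cancer-testis antigen genes and was at 678, 786 and 915 TPM on polysomes and 168, 216 and 247 TPM in the input, a difference of 1.92 (limma adjusted p = 0.00176). The values of single members of such families are uncertain.

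EIF3G, the gene targeted by the other siRNAs of the study, was itself enriched on polysomes of control cells. It was at 1680, 1916 and 1803 TPM on polysomes and at 1158, 1092 and 878 TPM in the input, a log2 difference of 0.80 (SE 0.29, limma adjusted p = 0.0483). The fractions did not overlap, and the adjusted p lay just under the threshold. With quantile normalization the difference was 0.67 (limma adjusted p = 0.126).

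The strongest depletion belonged to the MTRNR2L genes, nuclear near copies of mitochondrial ribosomal RNA. MTRNR2L2 was at 6.06, 13.1 and 5.61 TPM on polysomes and at 1258, 1788 and 2230 TPM in the input, so the input mean was 213-fold the polysomal mean. The log2 difference was -7.62 (SE 0.36, limma adjusted p = 1.77e-07). MTRNR2L8 followed at -7.44, MTRNR2L9 at -5.94 and MTRNR2L1 at -5.33. Reads of the mitochondrial RNA itself could be counted for these genes, which was not tested. For them siCtrl input 1 was an input library like the others: its 1258 TPM of MTRNR2L2 stood far above each polysomal library.

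TOMM5, NDUFC1 and POLR2K were depleted with all 3 input libraries in accord. No protein lengths were used here, so these genes do not describe mRNAs of small proteins as a class. TOMM5, a small subunit of the channel that imports proteins into mitochondria, was at 158, 223 and 239 TPM on polysomes and at 894, 891 and 833 TPM in the input. The difference was -2.10 (SE 0.24, limma adjusted p = 0.000735). NDUFC1, a small accessory subunit of respiratory complex I, was at 25.9, 23.4 and 27.3 against 98.8, 129 and 149 TPM, a difference of -2.24 (SE 0.25, limma adjusted p = 0.000735). POLR2K, the RPB12 subunit of RNA polymerase II, was at 16.8, 31.0 and 30.3 against 163, 183 and 232 TPM, a difference of -2.87 (SE 0.38, limma adjusted p = 0.00165). In all 3 genes every input library was more than 3 times every polysomal one. With size factors TOMM5 was at -0.92 and not called (limma adjusted p = 0.159). POLR2K and POLR2G encode subunits of one enzyme and lay at opposite ends of the comparison.

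**Figure D2:**
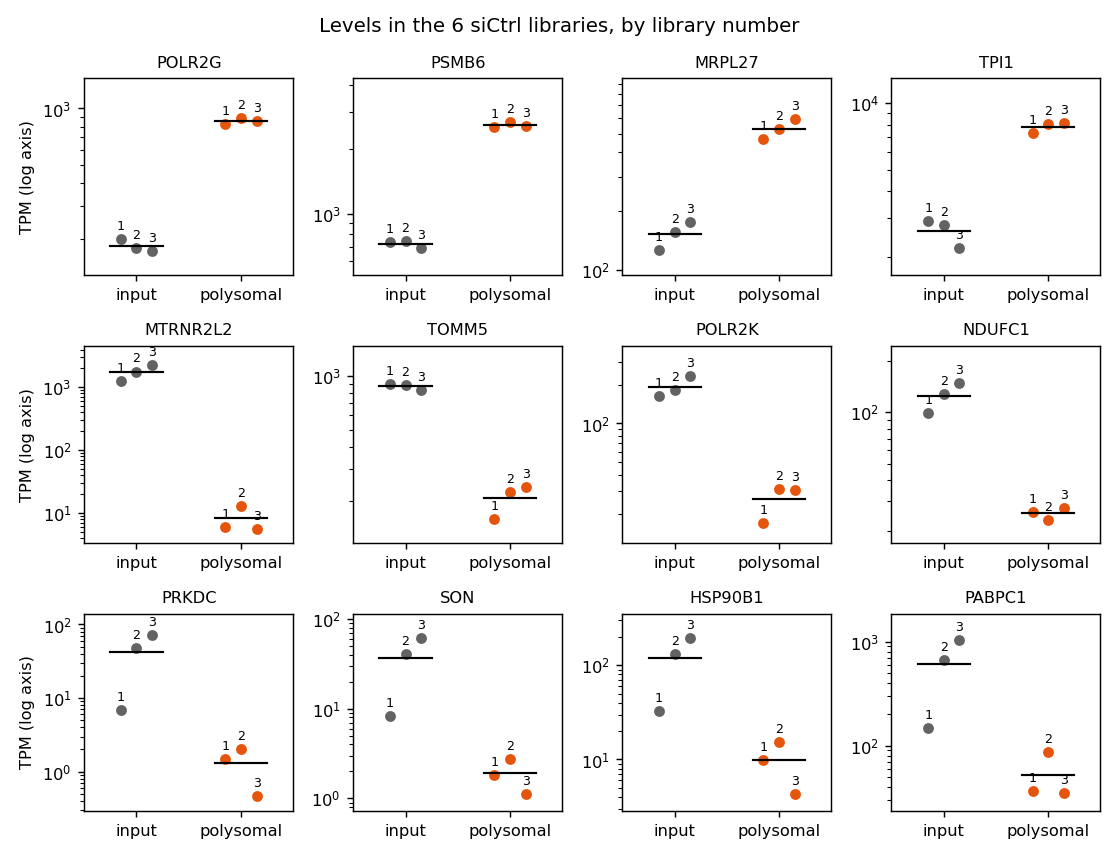
Levels of 12 genes in the 6 siCtrl libraries (TPM, log axis, scaled per gene), with the library number beside each point and a bar at the mean of 3. The top row shows genes higher on polysomes, and the other rows genes lower on polysomes. In the bottom row siCtrl input 1 lies between the other input libraries and the polysomal libraries, while in the top and middle rows it lies with the other input libraries.

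The next largest depletions had another shape. PRKDC, the DNA-dependent protein kinase, was at 1.5, 2.0 and 0.47 TPM on polysomes and at 6.83, 47.8 and 71.9 TPM in the input. The difference was -3.77 (SE 0.84, limma adjusted p = 0.0185), and -4.74 without siCtrl input 1. SON, a large splicing protein, was at 1.82, 2.78 and 1.11 against 8.20, 40.7 and 62.1 TPM, a difference of -3.36 (SE 0.76, limma adjusted p = 0.0192). HSP90B1, the HSP90 chaperone of the endoplasmic reticulum, was at 9.77, 15.3 and 4.30 against 32.4, 131 and 193 TPM, a difference of -3.28 (SE 0.67, limma adjusted p = 0.0135). PABPC1, the cytoplasmic poly(A)-binding protein, was at 36.8, 86.0 and 34.8 against 146, 664 and 1036 TPM, a difference of -3.25 (SE 0.71, limma adjusted p = 0.0177). In these genes all input libraries lay above all polysomal libraries, which the rule for naming them required. Even so, siCtrl input 1 was several times lower than the other input libraries. The same order held in TAF13 (-3.31), a small subunit of the transcription factor TFIID, TOP2A (-3.27), the DNA topoisomerase of dividing cells, BCLAF1 (-3.23) and CLTC (-3.16), the clathrin heavy chain.

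Over all 3125 genes called lower, the polysomal mean minus siCtrl input 1 had a median of -0.54, against -2.02 and -2.54 for siCtrl input 2 and 3. Over the 851 genes called higher the corresponding medians were 1.07, 0.93 and 1.14, so in that direction the input libraries gave similar sizes. siCtrl input 1 was the lowest input library in 3020 (96.6%) of the genes called lower and in 366 (43.0%) of those called higher.

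A core of genes was called in the same direction in the fit described and in each of 24 alternatives, the minimum of 5 TPM being left out of this count: 48 higher and 25 lower. The 48 ranged from 58.0 to 5233 TPM, with differences of 1.07 to 2.21. They included the proteasome genes PSMB3, PSMB5 and PSMB6, the glycolytic genes TPI1 and ALDOA, and the complex I genes NDUFS3, NDUFB8 and NDUFS6. The mitochondrial ribosome genes MRPL24, MRPL27 and MRPS26 and 6 genes of the GAGE cluster were also among them. The 25 lower genes ranged from 2.16 to 883 TPM. They comprised 5 MTRNR2L genes and, among others, POLR2K, NDUFC1, GTF3A and GTF2A2 of the transcription machinery, PFDN1 of the prefoldin chaperone, PDCD5 and RNF11. The median gene span, introns included, was 6.86 kb for the 48 genes and 19.3 kb for the 25, against 29.3 kb for all tested genes.

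For the gene classes below, the numbers in brackets after the members that rose and fell are the same counts without siCtrl input 1. They are to be read against 8% and 29.4% of all genes called higher and lower, or 8.95% and 58.8% without that library. Shares near these are no result about a class.

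Cytosolic ribosomal protein mRNAs made up the largest block of the libraries. Their 79 genes took 22.9%, 26.7% and 28.3% of the 3 polysomal libraries and 36.4%, 30.1% and 28.4% of the 3 input libraries. All polysomal shares lay below all input shares, though siCtrl polysomal 3 and siCtrl input 3 lay close together. Of 47 large-subunit genes 3 rose and 14 fell (4 and 13), shares of 6.38% and 29.8% that are near those of all genes, with a median of -0.25. Of 32 small-subunit genes 1 rose and 6 fell (4 and 8), and the median was -0.40. Relative to all genes these medians were 0.72 and 0.57 as deposited and -0.32 and -0.37 with quantile normalization, so their place relative to other mRNAs changed sides with the scaling. Many ribosomal protein genes have processed pseudogenes that could take or give reads.

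The ribosomal proteins did not move as 1 block. RPLP2, an acidic stalk protein, was at 6837, 7003 and 8283 TPM on polysomes and at 4313, 4214 and 3575 TPM in the input, a difference of 0.87 (SE 0.19, limma adjusted p = 0.0173). RPS3 was at 3270, 3761 and 3528 against 1915, 1979 and 1928 TPM, a difference of 0.86 (SE 0.18, limma adjusted p = 0.0143). In both the fractions were well apart. RPL23A lay at the other end, at 299.1, 419 and 401 against 871, 1170 and 1258 TPM, a difference of -1.55 (SE 0.24, limma adjusted p = 0.00325). RPS29 was at 4432, 6141 and 6262 against 15313, 13034 and 11506 TPM, a difference of -1.25 (SE 0.27, limma adjusted p = 0.0161). RPL41, which encodes the shortest protein of the ribosome, was at 2617, 3640 and 3652 against 8566, 7837 and 8278 TPM, a difference of -1.33 (SE 0.24, limma adjusted p = 0.00821). The fractions did not overlap in any of these genes. With size factors RPL23A, RPS29 and RPL41 were at -0.38, -0.07 and -0.16 and none of them was called. RPL35 and RPS2, the most abundant members of each subunit, differed by -0.89 and -0.98 as deposited but by 0.29 and 0.19 with size factors.

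Annotated starts of mRNAs were read from RefSeq (GRCh38.p14) to see which members begin with the pyrimidine run. Each line shows 25 bases from 2 bases before the start onward, on the strand of the gene, with the run in capitals. The first 4 genes are ribosomal proteins whose differences run from 0.86 (RPS3) to -1.33 (RPL41), the next 5 are other mRNAs known for a TOP tract, and the last pair, 1 strongly enriched and 1 strongly depleted, has no such run.
RPS3 (chr11:75399516-75399540, plus strand): ttCCTTTCCTTTCagcggagcgcgg
RPLP0 (chr12:120201089-120201113, minus strand): gCCCTTCTCTCgccaggcgtcctcg
RPS6 (chr9:19380214-19380238, minus strand): CCCTCTTTTCCgtggcgcctcggag
RPL41 (chr12:56116631-56116655, plus strand): ttCTCTCggccttagcgccattttt
RACK1 (chr5:181243884-181243908, minus strand): CTCTCTCTTTCactgcaaggcggcg
EEF1A1 (chr6:73521010-73521034, minus strand): ttCTTTTTCgcaacgggtttgccgc
TPT1 (chr13:45341161-45341185, minus strand): gCCTTTTCCgcccgctcccccctcc
EIF4B (chr12:53006454-53006478, plus strand): gtCTTTTgcgttctctttccctctc
IPO7 (chr11:9384650-9384674, plus strand): ttCCTTTCgcgccggttgccgctgc
PSMB3 (chr17:38752739-38752763, plus strand): acagcagtgagagcggttgcgcagt
SON (chr21:33543036-33543060, plus strand): gcatgctgggagcctggaggactag

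The run was searched as a C within 2 bases of the start followed by at least 4 further C or T, on the transcribed strand. It was present in 51 of 63 ribosomal protein genes with a start sequence (81.0%), in 17 of 18 other TOP mRNAs (94.4%) and in 16.8% of all 8753 tested genes with a start sequence. Of all genes with a RefSeq promoter entry 13% held it. Among genes called higher the share was 16.5% and among those called lower 17.8%. A match describes these letters at 1 annotated start and does not show that the mRNAs of these cells begin there.

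Both TOP lists carry the same kind of start, but their values differed. Ribosomal protein genes with the run had a median of -0.25, and other TOP mRNAs with the run a median of -1.48. Without siCtrl input 1 these were -0.20 and -1.83. The gap differed by input library. Against siCtrl input 1, 2 and 3 all 24 other TOP mRNAs had medians of -0.32, -1.79 and -2.30. Large-subunit genes were at -0.16, -0.23 and -0.34, and small-subunit genes at -0.21, -0.34 and -0.33. RACK1, a scaffold protein of the small subunit, was at 4799, 2934 and 2643 TPM on polysomes and at 1906, 2829 and 2893 TPM in the input, overlapping, a difference of 0.42 that was not called. TPT1, a growth-related protein, was at 51.4, 60.4 and 56.1 against 143, 289 and 395 TPM, a difference of -2.16 (SE 0.39, limma adjusted p = 0.00887). EEF1A1, the elongation factor that delivers tRNA, was at 1458, 939 and 583 against 1237, 4288 and 6401 TPM. It was called at -1.80, but its fractions overlapped through siCtrl input 1. EIF4B (-2.56) and IPO7 (-2.79), an import receptor, fell without overlap. Of the 24 other TOP mRNAs 1 rose (PFDN5, 0.78) and 13 fell (1 and 16), and the median relative to all genes was -0.53, with -0.69 without siCtrl input 1 and -1.44 with quantile normalization.

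The remaining translation genes held members at both ends. Of 32 initiation factors 3 rose and 13 fell (3 and 21). Their median relative to all genes was -0.19, with 0.05 under size factors and -1.04 under quantile normalization. Subunits of eIF3 spread widely: EIF3K, a small subunit, was at 1880, 2080 and 1881 TPM against 678, 930 and 850 TPM and rose by 1.26 (SE 0.26, limma adjusted p = 0.0153). EIF3A, its largest subunit, was at 2.85, 5.21 and 1.64 against 8.64, 50.9 and 79.3 TPM and fell by 3.10 (SE 0.82, limma adjusted p = 0.029). EIF6, an anti-association factor of the large subunit, also rose (0.86). Of 48 ribosome biogenesis factors 4 rose and 20 fell (5 and 36), and their median relative to all genes was -0.53. Among them FBL, the methyltransferase of box C/D particles, rose (0.87), as did NOP16, and NOLC1 fell (-2.73). Of 20 cytosolic aminoacyl-tRNA synthetases 1 rose, FARSA (0.92), and 7 fell (1 and 13), with EPRS1 lowest at -2.89.

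**Figure D3:**
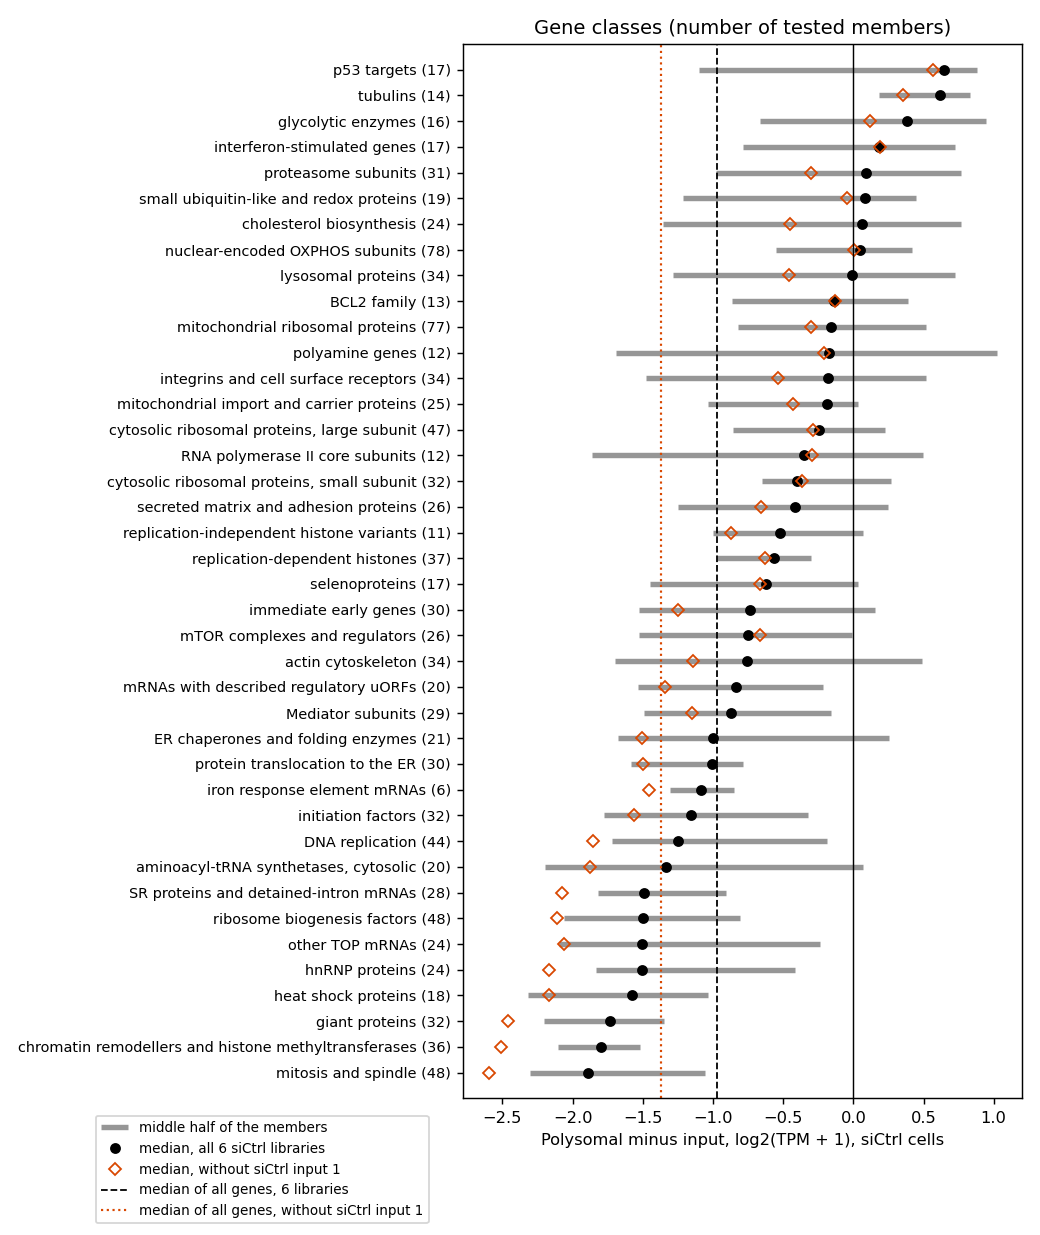
Polysomal minus input difference (log2(TPM + 1)) of 40 gene classes, ordered by their median (black points), with the middle 50% of members as grey bars and the number of tested members in brackets. Open diamonds are medians without siCtrl input 1. The dashed and dotted lines are the medians of all genes with and without that library, -0.97 and -1.37. Tubulins, p53 targets and glycolytic enzymes lie at the top. Mitosis genes, chromatin remodellers and giant proteins lie at the bottom, and their diamonds are shifted further down.

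Glycolytic and oxidative phosphorylation genes had medians above that of all genes. Of 16 tested glycolytic enzymes 5 rose and 1 fell (4 and 4), with a median of 0.39, which is 1.36 above that of all genes as deposited and 0.27 above it with quantile normalization. TPI1, triosephosphate isomerase, was at 7341, 8035 and 8107 TPM on polysomes and at 2915, 2800 and 2203 TPM in the input, a difference of 1.58 (SE 0.23, limma adjusted p = 0.00241). GAPDH was at 34389, 21114 and 16400 against 11502, 13691 and 11721 TPM, a difference of 0.90 (SE 0.27, limma adjusted p = 0.0367). Polysomal libraries were higher in both genes, with a wide spread among them in GAPDH. Glycolytic mRNAs summed to 6.67%, 4.28% and 3.40% of the polysomal libraries and to 2.18%, 2.66% and 2.36% of the input libraries.

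Of 78 nuclear-encoded subunits of oxidative phosphorylation 13 rose and 11 fell (13 and 19), and their median was 0.05. That is 1.02 above all genes as deposited and 0.06 above with quantile normalization. NDUFS3, a core subunit of complex I, was at 645, 578 and 534 against 167, 216 and 220 TPM and rose by 1.55 (SE 0.23, limma adjusted p = 0.00318). NDUFC1 of the same complex was the lowest member. Of 77 mitochondrial ribosomal proteins 16 rose and 9 fell (15 and 26), from MRPL27 at 1.79 down to MRPS35 at -1.75. Their median was 0.81 above all genes as deposited and -0.03 relative to them with quantile normalization. Of 25 import and carrier proteins of mitochondria 1 rose and 3 fell (1 and 9), TOMM5 being the lowest.

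Protein breakdown and lipid synthesis showed similar positions. Of 31 proteasome subunits 7 rose and 1, PSMD1 of the regulatory particle, fell (-2.92), and without siCtrl input 1 the counts were 6 and 11. Proteasome mRNAs summed to 1.61%, 1.35% and 1.2% of the polysomal libraries and to 0.49%, 0.78% and 0.88% of the input libraries. The fractions did not overlap. The proteasome median was 1.06 above all genes as deposited and -0.03 relative to them with quantile normalization. Of 24 cholesterol biosynthesis genes 5 rose and 5 fell (7 and 10). FDPS, which makes farnesyl diphosphate, and PMVK rose by 1.35 and 1.43. Of 34 lysosomal genes 6 rose and 7 fell (6 and 14). The tetraspanin CD63 was at 2220, 2372 and 2138 TPM against 788, 796 and 716 TPM and rose by 1.55 (SE 0.21, limma adjusted p = 0.00176). Among the subunits of the lysosomal proton pump, ATP6V0D1 rose by 1.60 and ATP6V1A fell by 2.24. The cholesterol and lysosome medians were 1.03 and 0.96 above all genes, and stayed above with quantile normalization (0.17 and 0.43).

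Among structural and secretory genes, tubulins stood highest. Of 14 tubulins 3 rose and 0 fell by limma, also 0 at an unadjusted p under 0.05, but 2 rose and 2 fell without siCtrl input 1. The tubulin median was 1.59 above all genes (0.82 with quantile normalization). TUBA1C, which shares much of its sequence with TUBA1B, rose by 1.11. Of 34 actin cytoskeleton genes 5 rose and 12 fell (5 and 19). PFN1, profilin, the most abundant of them, rose by 0.88, and VCL, vinculin, was lowest at -2.81. Of 34 integrins and surface receptors 5 rose and 10 fell (4 and 14), and the 29.4% that fell equals the share of all genes. ITGB1 was lowest at -2.48. Of 26 tested secreted and matrix proteins 1 rose, the protease inhibitor TIMP1 at 844, 875 and 853 against 408, 466 and 383 TPM (1.04), and 6 fell (1 and 13), LAMC1 lowest at -2.18. Of 21 chaperones of the endoplasmic reticulum 3 rose and 6 fell (3 and 12). PPIB and the collagen chaperone SERPINH1 rose by 1.0 and 1.15 while HSP90B1 fell. Of 18 heat shock proteins 1 rose, HSPB1 (0.74), and 11 fell (0 and 15), HSPH1 lowest at -3.02. The heat shock median was -0.61 relative to all genes and -1.02 with quantile normalization.

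Mitosis genes were among the most depleted classes. Of 48 mitosis and spindle genes 3 rose and 30 fell (2 and 39), and the class median was -1.89. Relative to all genes this was -0.92 as deposited, -1.23 without siCtrl input 1 and -1.0 with quantile normalization. Against siCtrl input 1, 2 and 3 the class median was -0.52, -2.29 and -2.89. AURKB, the kinase of the chromosomal passenger complex, rose by 1.31, and TOP2A fell by 3.27. The summed share of the class did not separate the fractions, at 0.46%, 0.37% and 0.33% of the polysomal and 0.22%, 0.39% and 0.46% of the input libraries. Of 44 DNA replication genes 1 rose and 17 fell (1 and 29), and their median relative to all genes was -0.28. That 1 was TK1, thymidine kinase, at 949, 985 and 831 against 394, 370 and 294 TPM (1.39, SE 0.23, limma adjusted p = 0.00617). MCM4, part of the replicative helicase, was lowest at 13.2, 11.1 and 3.55 against 30.5, 103 and 133 TPM (-3.05). Of 37 tested replication-dependent histones 1 rose and 4 fell (0 and 11), and their median was 0.40 above that of all genes. These mRNAs mostly lack poly(A) tails and have near-identical copies, so their values after oligo(dT) enrichment are uncertain. Of 11 replication-independent variants 2 rose and 3 fell (3 and 6), from -1.44 up to 1.29 for H2AX. Their median was 0.44 above all genes as deposited and -0.44 relative to them with quantile normalization.

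Of 36 chromatin remodellers and histone methyltransferases 0 rose and 29 fell by limma (0 and 34). The 80.6% that fell compare with 29.4% of all genes and with 45.2% of all genes of 100 kb or more. The median span of the class was 106 kb and its median level 4.46 TPM. The class median was -0.83 relative to all genes, -1.14 without siCtrl input 1 and -0.65 with quantile normalization. Its size differed by input library. Against siCtrl input 1, 2 and 3 it was -0.41, -2.23 and -2.81, where all genes were at -0.10, -1.19 and -1.55. CHD4, an ATPase of the NuRD complex, fell by 3.09. Of 24 hnRNP genes 0 rose and 7 fell by limma (0 and 16), and the 29.2% lower is near the share of all genes. Their median nevertheless lay below that of all genes, by -0.53 as deposited, -0.80 without siCtrl input 1 and -1.21 with quantile normalization. Against siCtrl input 1, 2 and 3 it was 0.06, -1.87 and -2.44. Of 28 SR proteins and mRNAs with detained introns 1 rose and 12 fell (1 and 23). In these classes HNRNPU fell by 3.09 and SON by 3.36, while U2AF2, which recognises the 3' splice site, rose by 1.39. Of 29 Mediator subunits 2 rose and 9 fell (2 and 19), or 6.9% and 31%, near the shares of all genes, from MED22 at 1.08 to MED21 at -1.75. The 12 core subunits of RNA polymerase II had 3 rises and 6 falls (3 and 6), POLR2G and POLR2K being the extremes. Of 32 tested giant proteins 0 rose and 20 fell by limma (0 and 30). None of the 3 classes without a rise (chromatin, hnRNP, giant) had a member higher at an unadjusted p under 0.05: the count was 0 in each. The giant protein median relative to all genes was -0.76, with -0.65 under quantile normalization. Against siCtrl input 1, 2 and 3 the class median was -0.28, -2.13 and -2.79, and its median span was 149 kb.

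Groups of mRNAs with described regulatory elements, and of polyamine, selenoprotein and mTOR genes, gave mixed values. Of 20 mRNAs with described regulatory upstream open reading frames 0 rose and 5 fell by limma (0 and 12), 25% against 29.4% of all genes. ATF4, the stress-response factor whose upstream frames hold back its translation in unstressed cells, was at 108, 88.1 and 95.6 TPM on polysomes and at 176, 278 and 288 TPM in the input. The fractions did not overlap, and the difference was -1.31 (SE 0.42, limma adjusted p = 0.0407). With size factors ATF4 was at -0.14 and not called. Of 6 tested mRNAs with iron response elements 0 rose and 3 fell by limma (0 and 5). FTL, the ferritin light chain, was at 1552, 1797 and 1932 against 3660, 3262 and 2419 TPM and differed by -0.81 (SE 0.23, limma adjusted p = 0.0327) as deposited and by 0.37 with size factors. TFRC, the transferrin receptor, fell by 2.39. Of 12 polyamine genes 4 rose and 3 fell (4 and 5). EIF5A and DOHH, the factor that carries hypusine and the enzyme that completes it, rose by 1.0 and 1.43, and AMD1, which has a regulatory upstream frame, fell by 2.06. Of 17 tested selenoproteins 0 rose and 4 fell by limma (1 and 8), SELENOF lowest at -2.42. In the 3 groups without a rise here, 0 members were higher at an unadjusted p under 0.05. Of 26 genes of the mTOR complexes and their regulators LAMTOR2 rose (1.43) and 8 fell (2 and 13), among them LARP1 (-2.36), a protein that binds TOP mRNAs.

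Among stress and signalling genes, p53 targets had the highest median of all classes, 0.65, or 1.62 above all genes and 0.90 with quantile normalization. Of 17 tested members 5 rose and 3 fell, and without siCtrl input 1 the split turned to 4 and 7. BAX and TP53I3 rose by 0.88 and 1.01, and MDM2 fell by 2.32. H1299 cells are known to lack p53, so here the list is a set of genes and no sign of p53 activity. Of 17 tested interferon-stimulated genes 3 rose and 4 fell (4 and 5), with BST2 highest at 1.65. Of 30 tested immediate early genes 3 rose and 7 fell (3 and 16), GADD45B being highest at 172, 198 and 226 against 63.1, 80.4 and 76.2 TPM (1.42, SE 0.24, limma adjusted p = 0.00674). UBB, a polyubiquitin gene, rose by 1.34.

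Level and gene span both went along with the direction. The median difference was -1.19 among 3421 genes of 1 to 5 TPM and -1.32 among 3503 genes of 5 to 20 TPM. It rose to -0.41 from 20 to 50 TPM, 0.26 from 50 to 100 TPM, 0.34 from 100 to 500 TPM and 0.28 among the 337 genes of 500 TPM or more. The share called higher went from 0.23% in the lowest bin to 30.6% in the highest. Without siCtrl input 1 the lowest and highest bins were at -1.68 and 0.35, and with quantile normalization at -0.09 and 0.13.

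RefSeq (GRCh38.p14) gives a gene span, introns included, for 10502 of the tested genes. The median difference was -0.00 for 1022 genes under 5 kb, 0.13 for 5 to 10 kb and -0.30 for 10 to 20 kb. It was -1.06 for 20 to 50 kb, -1.36 for 50 to 100 kb and -1.42 for 1710 genes of 100 kb or more. Without siCtrl input 1 the median was 0.03 under 5 kb and -1.98 at 100 kb or more. With quantile normalization these medians were 0.34 and -0.35. Of the shortest genes 15.3% were called higher and 14.8% lower, and of the longest 1.05% and 45.2%. Span and level are themselves related: across genes Spearman's rho was -0.41 between them, -0.45 between span and difference, and 0.34 between level and difference. In the 2104 genes of 50 TPM or more, rho between span and difference was -0.08. There the median went from 0.22 under 5 kb and 0.44 at 5 to 10 kb to -0.19 among 43 genes of 100 kb or more. In genes under 50 TPM the median went from -0.17 under 5 kb to -1.43 among 1667 genes of 100 kb or more. These correlations are across genes within the same libraries and are descriptions only. Gene span is not coding length, and no protein lengths were used here.

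**Figure D4:**
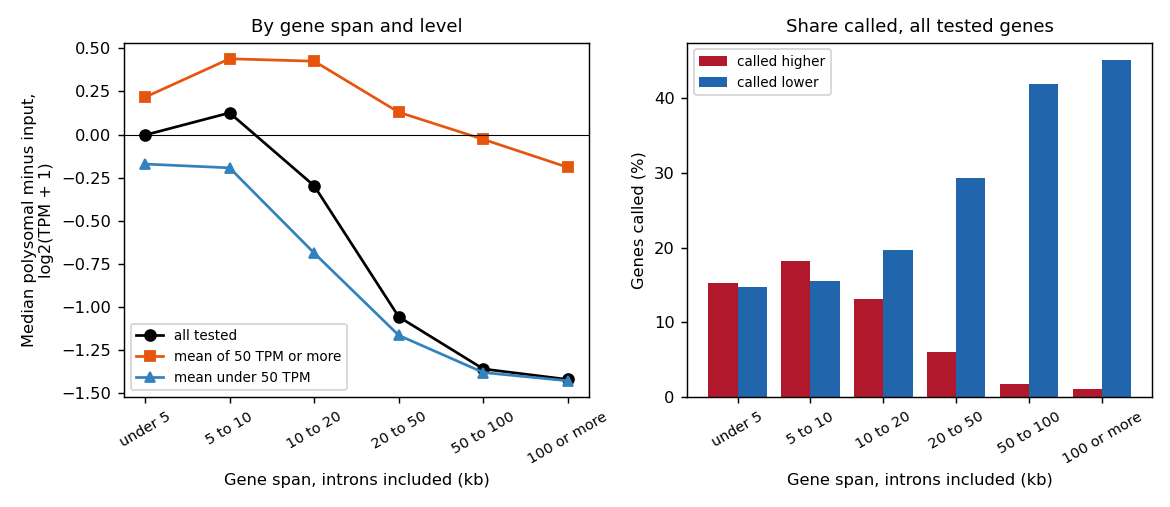
Left, median polysomal minus input difference (log2(TPM + 1)) by gene span in kb for all tested genes (black), genes with a mean of 50 TPM or more (orange) and genes under 50 TPM (blue). Right, percent of tested genes called higher (red) or lower (blue) in each span bin. The medians of all genes fall from -0.00 under 5 kb to -1.42 at 100 kb or more, while the abundant genes stay between 0.44 and -0.19.

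The siEIF3G cells give the same comparison with libraries of their own, of which siEIF3G input 2 and siEIF3G polysomal 3 also stood nearer to the other fraction (mean Pearson correlation across genes 0.93 with their own group against 0.96, and 0.949 against 0.954). With EIF3G reduced by the siRNAs, 192 genes were higher on polysomes and 141 lower, and the median of all genes was -0.49 against -0.97 in control cells. Without these libraries and siCtrl input 1 the siEIF3G counts were 1737 higher and 5804 lower, and the siCtrl counts 1416 and 6564. Across the 10642 genes, which are not independent replicates, the differences in the 2 cell states had a Pearson correlation of 0.90 and a Spearman correlation of 0.88. No libraries were shared between them. POLR2G differed by 2.03 and PSMB6 by 1.71 in siEIF3G cells, against 2.21 and 1.85 in control cells, and MTRNR2L2 by -7.95 against -7.62. TOMM5, NDUFC1 and POLR2K differed by -2.13, -1.87 and -2.42, against -2.10, -2.24 and -2.87. PRKDC and HSP90B1, which were widely spread in control cells, were at -2.58 against -3.77 and at -1.02 against -3.28. Both were named for their large depletion in control cells, a choice that by itself favours smaller values in other libraries.

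The difference between cell states was tested directly as the interaction of siRNA and fraction. It was called in 0 of 10642 genes (0%) by limma, with 20 genes at an unadjusted p under 0.05 and 0 called in every alternative run. Those 20 are far fewer than evenly spread p-values would give, for a reason that was not tested. The 0 calls therefore say little about whether the cell states differed. The smallest unadjusted p belonged to H1-2, a linker histone, which was at 60.2, 74.6 and 85.4 TPM against 39.8, 55.2 and 37.3 TPM in control cells. In siEIF3G cells it was at 54.5, 46.0 and 42.3 TPM against 56.2, 69.4 and 57.1 TPM. The differences of 0.73 and -0.35 were 1.08 apart (SE 0.36, limma adjusted p = 0.904). RPL29, HSP90B1 and VCP came next, at 0.58, -2.26 and -1.81 apart, with an adjusted p of 0.904 each. A p above the threshold does not show that the cell states loaded these mRNAs alike.

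**Figure D5:**
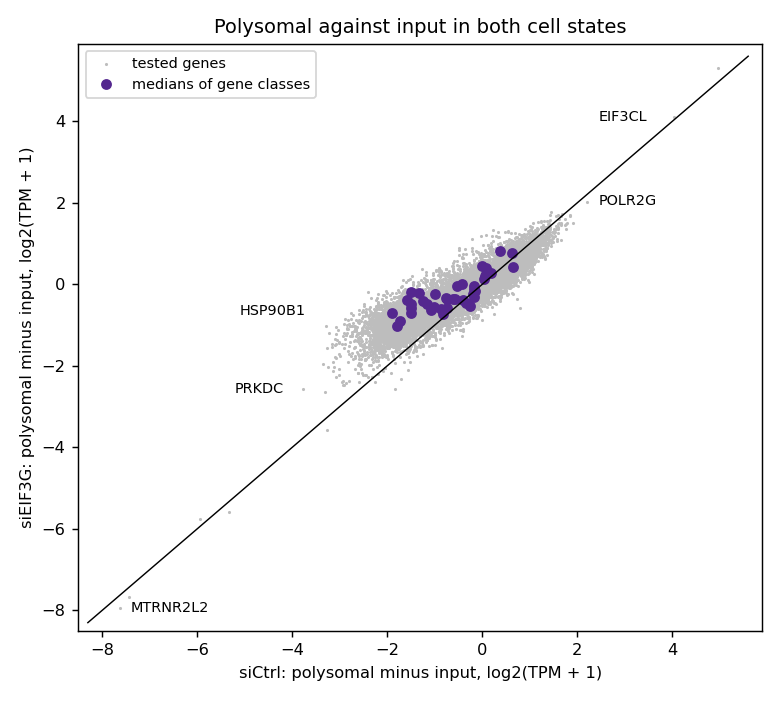
Polysomal minus input difference (log2(TPM + 1)) in siCtrl cells (horizontal) and siEIF3G cells (vertical) for the 10642 tested genes (grey) and the medians of the 40 gene classes (purple), with the line of equal values. Genes depleted in control cells, a group set by the horizontal values, mostly lie above the line. HSP90B1 does so at -3.28 and -1.02, while MTRNR2L2 and POLR2G lie near it.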

How the data were processed

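The authors deposited a gene table of TPM with 1 column for each library. RSEM 1.3.1 and genome build GRCh38.p13 are named in the submitters' processing notes. The aligner, annotation and filters: not given in the sources used here. TPM sum to 1000000 in each of the 12 libraries, so they are shares and keep no depth. From these values log2(TPM + 1) was computed for genes whose siCtrl libraries averaged 1 TPM or more. All 12 libraries entered a linear model of the 4 groups in limma 3.58.1 in R 4.3.3 (mean-variance trend, 8 residual degrees of freedom). The model did not pair polysomal and input libraries, as the labels do not say which of them share a lysate. The Benjamini-Hochberg adjustment covered 10642 genes, and an adjusted p under 0.05 was a call. The script was tested on simulated data. Named genes are MTRNR2L2, EIF3G, the 12 largest called differences per direction without overlap (mean of 5 TPM or more), the most abundant, highest and lowest member of each class, and the 4 smallest p of the interaction; some others (EIF3C, EEF1A1, TPT1, EIF4B, IPO7, RPLP0, RPS6, RPL41 and the genes called in every setting) were chosen after their values were seen. A few genes that meet the rule are not reported here. The comparison and the gene lists were chosen with earlier results of these data known. Gene span and mRNA starts come from RefSeq (GRCh38.p14), matched by symbol: 10502 and 8753 of the tested genes matched. Alternatives changed the pseudocount, filter, scaling, variance model, library weights and libraries used.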

Additional observations from a re-analysis of the deposited data

How the results depend on the processing

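In siCtrl cells, 851 genes were higher and 3125 lower as described. The counts moved by more than 1.5 times in these settings: 829 lower with a pseudocount of 5; 551 and 698 with no filter; 1839 lower with a minimum of 5 TPM; 2850 and 1735 with size factors; 1691 and 1259 with quantile normalization; 4938 lower with totals that leave out ribosomal protein genes; 1885 and 7111 with library weights; 370 and 238 with only the 6 siCtrl libraries; and 1416 and 6564 without siCtrl input 1, siEIF3G input 2 and siEIF3G polysomal 3. Leaving out 1 library at a time gave 48 to 1023 higher and 56 to 6257 lower. In siEIF3G cells, 192 were higher and 141 lower as described, with 18 and 29 (size factors), 221 lower (quantile), 97 and 267 (totals without ribosomal protein genes), 66 and 83 (no trend), 2029 and 6027 (library weights) and 1737 and 5804 (without the 3 libraries), and 20 to 533 higher and 24 to 465 lower with 1 library left out. The cause was not tested. The replicate number as a block gave 664 higher and 1425 lower in siCtrl cells. This block gave 1 effect per number, shared by siCtrl and siEIF3G libraries, and not 1 per lysate. Each lysate gave both fractions, but the labels do not say that a number marks a shared lysate or culture. Same-numbered polysomal and input libraries deviated with correlations of -0.13, 0.36 and -0.53 in siCtrl cells and -0.45, 0.63 and 0.61 in siEIF3G cells. Since 78.0% of the variance within groups lay on the first axis, these correlations cannot decide whether the numbers mark pairs. The main fit used no pairing. The interaction was called in 0 genes in all settings run. Of the values of single named genes under the alternatives, 1990 kept their direction and side of the threshold, 445 lost the call, 7 gained one and 8 changed sign. With size factors RPL35, RPS2, FTL, RPLP0 and RPS6 turned to 0.29, 0.19, 0.37, 0.99 and 0.35. RPL29, at 0.056 and not called, turned to -0.071 (quantile) and -0.060 (totals without ribosomal protein genes) and ranged from -0.017 (without siCtrl polysomal 3) to 0.152 with 1 library left out. Classes of protein length, zinc fingers and N-terminal features were planned and not run, as no protein sequences were used here; gene span took their place after the data were seen. Median differences across 5 span bins of equal size ran from 0.05 to -1.42.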

Other observations

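Gene families that share the start of a symbol were also tallied, for the 27 starts with at least 30 tested members. This was added after the data were seen. Counts in brackets leave out siCtrl input 1. They are to be read against 8% higher and 29.4% lower of all genes, or 8.95% and 58.8% without that library. Of 186 solute carriers (SLC), the transporters of small molecules, 26 were higher on polysomes and 45 lower (23 and 96). The SLC median relative to all genes was 0.29, with 0.37 under quantile normalization. Of 46 genes with a WDR symbol, named for WD repeats, 8 were higher and 13 lower (7 and 23), or 17.4% and 28.3%. The median relative to all genes was 0.51, with 0.12 under quantile normalization. Of 42 ubiquitin-specific proteases (USP) 0 were higher and 20 lower by limma (0 and 33), or 0% and 47.6%. At an unadjusted p under 0.05 the count higher was 1, and the median relative to all genes was -0.49. Of 35 centrosomal proteins (CEP) 0 were higher and 14 lower by limma (0 and 31), or 0% and 40%. At an unadjusted p under 0.05 the count higher was 0, and the median relative to all genes was -0.42. Of 32 DEAD-box helicases (DDX) 4 were higher and 15 lower (4 and 22), or 12.5% and 46.9%, with a median relative to all genes of -0.49. With quantile normalization the USP, CEP and DDX medians were -0.28, -0.23 and -0.55. The 307 zinc finger genes with a ZNF symbol had 6 higher and 92 lower (6 and 220). Those called higher made up 1.95%, against 8% of all genes. The ZNF median was -1.11, or -0.14 relative to all genes, and -0.20 relative to them without siCtrl input 1. With size factors and quantile normalization the relative medians were -0.40 and -0.01.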
